A study of Homo sapiens with 10 samples.

Results

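Type IV collagen and its core partners of the basement membrane were followed in ARPE-19 cells, an established human cell line derived from the retinal pigment epithelium (RPE), by RNA sequencing. The group holds 10 genes of the 22626 rows in the deposited count table: the 6 type IV collagen chains COL4A1, COL4A2, COL4A3, COL4A4, COL4A5 and COL4A6, the basement membrane collagen COL18A1, the nidogens NID1 and NID2, and HSPG2, which encodes perlecan. The members were picked by name from the table, and the group was chosen with values of the same high glucose contrast known, so their differences between the conditions are given as a description and serve as support for nothing. All 10 members passed the filter on low counts, as did 14936 rows in all. The study asked how RPE cells respond to high glucose and compared control medium with 5.5 mM glucose plus 32 mM mannitol (MG, 5 libraries) with medium of 37.5 mM glucose (HG, 5 libraries). Cells in both conditions were unmodified ARPE-19, kept in DMEM with fetal bovine serum and harvested after 48 h. Mannitol balances the osmotic load of the added glucose. ARPE-19 is a single line, and the labels do not say whether the libraries of a group came from separate cultures, so p-values measure only the spread between these samples, which may be technical.

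Basement membranes are thin sheets of matrix on which epithelia rest, and the RPE contributes to Bruch's membrane between itself and the choroidal vessels. Type IV collagen chains coil around each other in fixed combinations. The COL4A1 and COL4A2 chains assemble together in almost all tissues, those of COL4A3, COL4A4 and COL4A5 form the network of specialised membranes such as that of the kidney glomerulus, and the COL4A5 and COL4A6 chains assemble in some epithelial and smooth muscle membranes. Laminins form a second network, and nidogens and perlecan link it to type IV collagen, while COL18A1 is a proteoglycan collagen whose C-terminal fragment is endostatin.

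The 6 type IV collagen genes lie in pairs, head to head, so that the genes of a pair are transcribed away from each other. On GRCh38, with GENCODE release 29 as annotation, COL4A1 (ENSG00000187498) spans chr13:110148963-110307233 on the minus strand and COL4A2 (ENSG00000134871) chr13:110305812-110513209 on the plus strand. COL4A4 (ENSG00000081052) spans chr2:227002711-227164453 on the minus strand and COL4A3 (ENSG00000169031) chr2:227164565-227314792 on the plus strand. COL4A6 (ENSG00000197565) spans chrX:108155607-108439497 on the minus strand and COL4A5 (ENSG00000188153) chrX:108439844-108697545 on the plus strand. The other members are not paired with a collagen gene. COL18A1 (ENSG00000182871) lies at chr21:45405137-45513720 on the plus strand, and the remaining members are on minus strands, NID1 (ENSG00000116962) at chr1:235975830-236065162, NID2 (ENSG00000087303) at chr14:52004803-52069228 and HSPG2 (ENSG00000142798) at chr1:21822245-21937297.

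The intervals between the paired genes are shown because each lies, by the RefSeq gene bounds, upstream of both genes of a pair whose levels are given side by side. They were read from RefSeq on GRCh38.p14 and are printed on the plus strand, so that the gene on the minus strand starts to the left and its partner to the right. Capitals mark CCAAT and GGGCGG and, for matches on the minus strand, their reverse complements ATTGG and CCGCCC, the letters bound by NF-Y and by Sp-family factors. The intervals are the whole 126 bases between COL4A1 and COL4A2 (chr13:110307158-110307283), the 135 bases between the RefSeq gene bounds of COL4A4 and COL4A3 (chr2:227164489-227164623), and, of the 379 bases between COL4A6 and COL4A5, the 121 bases (chrX:108439588-108439708) that lie within 250 bases of the COL4A5 start and of the nearer of the RefSeq starts of COL4A6 (108439458). The other COL4A6 start, at 108438422, lies farther away. 
COL4A1/COL4A2 interval: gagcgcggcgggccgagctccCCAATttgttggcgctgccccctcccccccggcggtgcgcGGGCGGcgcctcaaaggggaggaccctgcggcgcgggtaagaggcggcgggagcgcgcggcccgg
COL4A4/COL4A3 interval: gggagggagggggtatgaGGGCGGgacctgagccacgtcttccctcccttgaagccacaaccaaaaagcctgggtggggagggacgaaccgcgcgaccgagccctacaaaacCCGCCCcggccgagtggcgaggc
COL4A6/COL4A5 interval: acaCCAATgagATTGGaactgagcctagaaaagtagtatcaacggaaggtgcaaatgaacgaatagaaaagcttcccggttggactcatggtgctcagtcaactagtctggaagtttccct

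The COL4A1/COL4A2 interval held 1 CCAAT and 1 GGGCGG match, and the COL4A4/COL4A3 interval held 2 GGGCGG matches and no CCAAT. The COL4A6/COL4A5 interval held 2 CCAAT matches, on opposite strands, and no GGGCGG. In windows of the 3 lengths just upstream of 35116 RefSeq starts, between 20.6% and 22.1% had CCAAT and between 34.1% and 35.5% had GGGCGG on either strand. TATAA, read on both strands and present in 10.2% to 11.2% of such windows, was in none of the intervals. The COL4A1/COL4A2 interval was 80.2% G and C with 20 CpG sites, more than in 94.2% of the windows of its length. The COL4A4/COL4A3 interval was 68.1% G and C with 11 CpG sites, and the COL4A6/COL4A5 interval 44.6% with 3, where the median window had 6. These windows end at a start, while the COL4A6/COL4A5 interval adjoins no RefSeq start of its pair, so the comparison is loose there. A match describes letters and is no evidence of binding, an absent match says only that these letters are not in the window, and GENCODE places some starts of these genes elsewhere. By the GENCODE spans given above, COL4A1 and COL4A2 overlap, and the interval printed for them lies within the span of COL4A2. For COL4A4 the start listed in the RefSeq promoter table, position 227164205, lies inside the gene's outer bound, so more bases separate that start from COL4A3 than the interval shows.

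Total counts were between 33039260 and 45864176 per library in MG and between 32448991 and 44400714 in HG, and 3 counts, which is as much as a listed 0 leaves possible, were 0.0654 to 0.0925 CPM (counts scaled to a common library total). This limit covers counting error only. Library numbers are those of the columns in the deposited table. MG_2 and HG_1 stood apart from the other 8 libraries on the second principal component. In them log2 CPM, as each gene's deviation from its mean over the 10 libraries, went up with GC content. Their slopes were 0.17 and 0.188 per 10 points of percent GC, and such slopes are relative between libraries. The slopes of the other libraries were between -0.0916 and -0.00519. Since 1 such library lies in each group, the members' log2 fold changes and calls were also taken without them. The counts of members whose groups do not overlap, or with a fold change above 1.5, were not. Of the RPE markers, OTX2, MITF and RLBP1 were present in the cells, RPE65 had at most 6 counts and TTR 0 in every library. CDH5 and LUM, which define endothelial cells and fibroblasts, were at 0 in every library, and PECAM1, COL1A2 and DCN had at most 4 counts. Other markers on the same lists were present, among them PDGFRB with 177 CPM, COL1A1 with 45.3, RGS5 with 6.04 and KDR with 3.58 in MG.

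The chains that form the ubiquitous network, COL4A1 and COL4A2, were lower in HG. COL4A1 CPM were 815, 513, 602, 660.2 and 730.3 in MG_1 to MG_5 and 260.4, 348, 328, 328 and 381 in HG_1 to HG_5. COL4A2 CPM were 1084, 914, 929.8, 962 and 1063 in the MG libraries and 553, 576, 555, 545 and 596 in the HG libraries, in the same order. For both genes every HG library lay below every MG library, and MG_2 was the lowest of the MG libraries. The COL4A1 mean went from 664 ± 116 CPM (SD, n = 5) to 329 ± 44.0, a log2 fold change of -1.01 ± 0.129 (SE) or 0.495-fold. The COL4A2 mean went from 990.4 ± 78.0 CPM to 565 ± 21.0, with a log2 fold change of -0.81 ± 0.0572 (0.571-fold). In bulk RNA, fewer cells that express a gene and less RNA of it per cell cannot be told apart.

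A gene is called here where its Benjamini-Hochberg adjusted p was under 0.05 over all 14936 rows in edgeR's quasi-likelihood test. Called were 15.4% of all rows, 7.8% as lower and 7.62% as higher in HG, and 2.02% were called lower with a fold change above 1.5. Of the 10 members, 6 were called lower (COL4A1, COL4A2, COL4A3, COL4A4, NID1 and HSPG2), 0 higher, and 4 were not called (COL4A5, COL4A6, COL18A1 and NID2). Of the 6, all but COL4A3 had a fold change above 1.5. The same 6 had all HG libraries below all MG libraries, which held for 6.91% of all rows, and the reverse, true of 6.74% of rows, held for 0 members. The median log2 fold change was -0.61 over the members and 0.00 over all rows tested. Because the members were chosen with this contrast known, nothing is read from how these counts stand to the background.

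**Figure D1:**
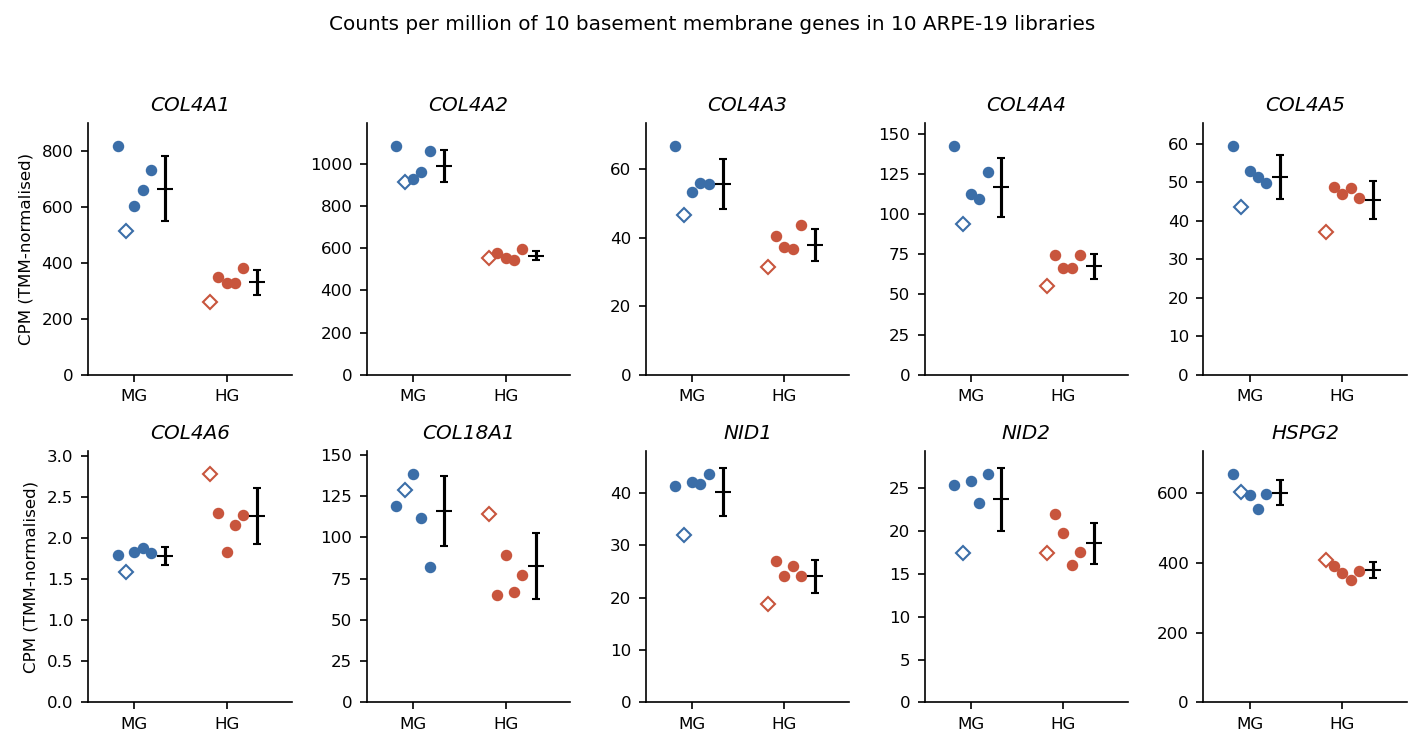
TMM-normalised CPM (vertical axes, each starting at 0) of the 10 genes in 5 MG (blue) and 5 HG (red) libraries. Points are libraries, open diamonds are MG_2 and HG_1, and the bars give the mean and SD of each group. HG lay below MG without overlap for COL4A1, COL4A2, COL4A3, COL4A4, NID1 and HSPG2, while the groups overlapped for COL4A5, COL4A6, COL18A1 and NID2.

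COL4A3 and COL4A4, the pair on chromosome 2, encode chains of the specialised network and were at lower levels than the ubiquitous chains. COL4A3 CPM were 66.6, 46.6, 53.3, 56.0 and 55.5 in the MG libraries and 31.3, 40.4, 37.2, 36.7 and 43.7 in the HG libraries. COL4A4 CPM were 142, 93.6, 113, 109 and 126 in MG and 55.2, 74.8, 66.4, 66.7 and 74.3 in HG. Both genes were lower in HG without overlap, and both were lowest in MG_2 among the MG and in HG_1 among the HG libraries. COL4A3 had a log2 fold change of -0.55 ± 0.106 (SE), from 55.6 ± 7.22 to 37.9 ± 4.61 CPM (SD, n = 5), and COL4A4 of -0.79 ± 0.116, from 117 ± 18.3 to 67.5 ± 7.97 CPM.

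COL4A5 and COL4A6, the pair on the X chromosome, were not called. COL4A5, the third chain of the specialised network, had CPM of 59.3, 43.6, 52.8, 51.3 and 49.9 in MG and 37.0, 48.9, 46.9, 48.5 and 45.8 in HG, and the groups overlapped. Its log2 fold change was -0.18 ± 0.0944 (SE), or 0.884-fold with a 95% interval of 0.778 to 1.00 (from the SE, not adjusted over the rows). COL4A6 was the scarcest member, with 59 to 81 counts per library in MG and 71 to 107 in HG. Its CPM were 1.79, 1.59, 1.83, 1.88 and 1.82 in MG and 2.78, 2.30, 1.83, 2.16 and 2.28 in HG. HG_3 lay within the MG range and the other 4 HG libraries above it. The log2 fold change of COL4A6 was 0.35 ± 0.148, or 1.27-fold with an interval of 1.04 to 1.56, and the gene did not pass the adjusted threshold.

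**Figure D2:**
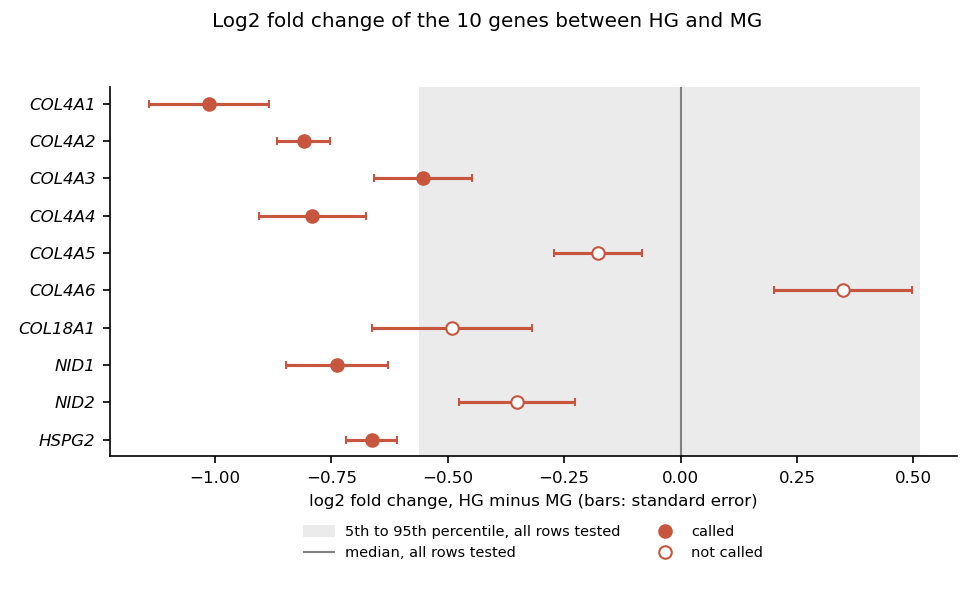
Log2 fold change of HG against MG (horizontal axis) with its standard error (bars) for each of the 10 genes. Filled points were called at an adjusted p under 0.05 and open points were not, the grey band spans the 5th to the 95th percentile of all 14936 rows tested (-0.56 to 0.51), and the line is their median. COL4A1, COL4A2, COL4A4, NID1 and HSPG2 lay outside the band, and COL4A6 was the only member above 0.

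Perlecan and the nidogens link the laminin and type IV collagen networks. HSPG2 CPM were 654, 604, 593, 553 and 598 in MG and 408, 391, 370.5, 349 and 378 in HG, with no overlap. Its spread within groups was small, with 601 ± 36.1 CPM (SD, n = 5) in MG and 379 ± 21.8 in HG, and its log2 fold change was -0.66 ± 0.0551 (SE). NID1 CPM were 41.4, 32.0, 42.1, 41.7 and 43.6 in MG and 18.9, 27.0, 24.2, 26.1 and 24.2 in HG. MG_2 was far below the other MG libraries for NID1 and still above every HG library. The NID1 mean was 40.2 ± 4.61 CPM in MG and 24.1 ± 3.16 in HG, and its log2 fold change was -0.74 ± 0.109.

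NID2, the second nidogen, had CPM of 25.4, 17.5, 25.8, 23.3 and 26.7 in MG and 17.5, 22.1, 19.8, 16.0 and 17.5 in HG. The groups overlapped through MG_2 alone, since the other 4 MG libraries lay above every HG library. Its log2 fold change was -0.35 ± 0.124 (SE), or 0.784-fold with an interval of 0.662 to 0.928, and it was not called in the edgeR test on all libraries. COL18A1 CPM were 119, 129, 138, 112 and 82.3 in MG and 114, 65.0, 89.2, 67.0 and 77.3 in HG. HG_1 lay among the MG libraries and MG_5 among the HG libraries. The COL18A1 mean was 116 ± 21.3 CPM (SD, n = 5) in MG and 82.5 ± 20.0 in HG, with a log2 fold change of -0.49 ± 0.172, or 0.711-fold with an interval of 0.563 to 0.899. Without MG_2 and HG_1 together 8 members were called, all as lower, now with NID2 and COL18A1, and 13.8% of all rows were called lower. With all libraries both genes were also called lower by DESeq2, as were 10.2% of the rows it gave an adjusted p, and after a correction for GC content and length, as were 14.8%. NID2 was called without MG_2 alone (log2 fold change -0.44), with 8.2% of rows called lower. COL18A1 was called without HG_1 alone (-0.63, with 10.1% of rows) or without MG_5 alone (-0.59, with 5.91%).

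The exons of 3 members overlap those of a gene on the opposite strand that has its own row, and whether the counting used strand is not given in the sources used here. SLC19A1, the reduced folate carrier, covers 1401 exon bases of COL18A1 (16.4%) and went from 11.6 ± 1.35 CPM in MG to 9.24 ± 0.810 in HG (SD, n = 5), and was called lower. RTRAF, an RNA-binding protein, covers 1915 exon bases of NID2 (30.0%) and was more abundant than NID2, with 111 ± 5.95 CPM in MG and 117 ± 7.88 in HG, and was not called. LDLRAD2 covers 2121 exon bases of HSPG2 (11.7%) and had 2.58 ± 0.578 and 2.27 ± 0.930 CPM. Their part in the values of COL18A1, NID2 and HSPG2 was not tested.

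Levels of different genes were compared as FPKM, which the authors divided by transcript length. In MG the order was COL4A2 with 143 ± 12.3 FPKM (SD, n = 5), COL4A1 with 94.1 ± 17.1, HSPG2 with 38.8 ± 2.23, COL18A1 with 19.8 ± 3.56 and COL4A4 with 10.8 ± 1.79. The ranges of these neighbours did not overlap. Below them lay COL4A5 with 7.40 ± 0.882 FPKM, COL4A3 with 6.89 ± 0.873, NID1 with 6.42 ± 0.812, NID2 with 4.60 ± 0.790 and, far lower, COL4A6 with 0.240 ± 0.0201. From COL4A4 down to NID2 each neighbouring pair had overlapping ranges over the libraries, and NID2 and COL4A6 did not overlap. Among all rows tested, the MG level of COL4A2 was at the 97.2 percentile and that of COL4A6 at the 7.14 percentile of FPKM.

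In HG the upper part of the order was the same, with 82.2 ± 4.07 FPKM (SD, n = 5) for COL4A2, 47.1 ± 7.00 for COL4A1, 24.6 ± 1.11 for HSPG2 and 14.1 ± 3.10 for COL18A1. COL4A5 with 6.60 ± 0.814 FPKM then stood above COL4A4 with 6.37 ± 0.860, with overlapping ranges. COL4A4 was above COL4A5 in 5 of 5 MG libraries and in 1 of 5 HG libraries. COL4A3 with 4.71 ± 0.730 FPKM, NID1 with 3.89 ± 0.538 and NID2 with 3.60 ± 0.483 followed, each overlapping its neighbour, and COL4A6 with 0.311 ± 0.0400 came last.

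**Figure D3:**
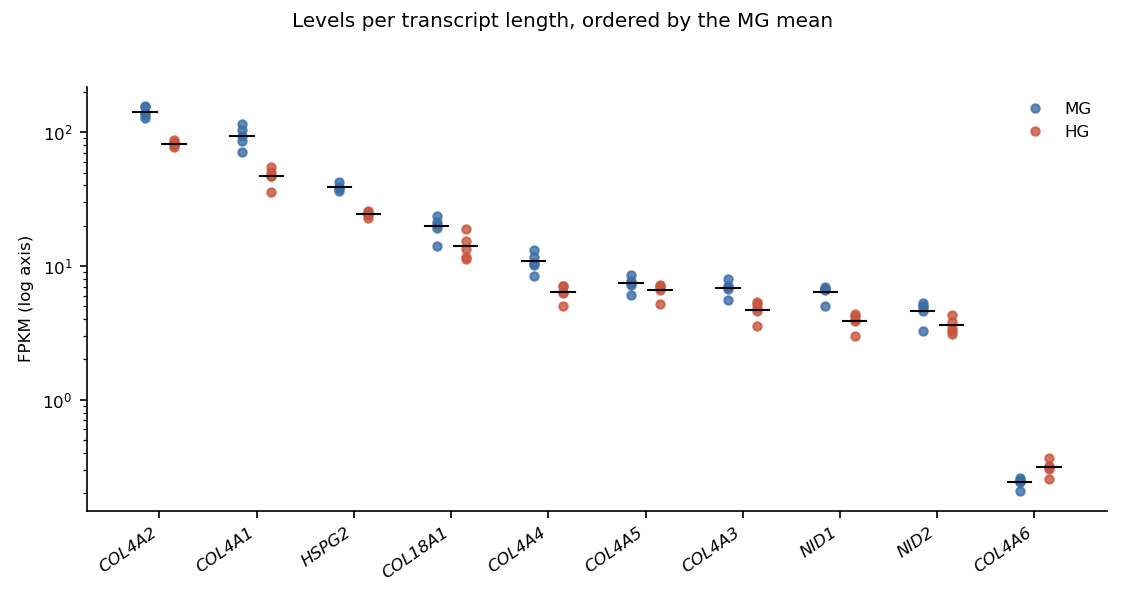
FPKM (vertical log axis) of the 10 genes in order of their MG mean, with 1 point per library in MG (blue) and HG (red) and a line at each group mean. COL4A2 and COL4A1 lead with MG means of 143 and 94.1 FPKM, and COL4A6 lies lowest at 0.240.

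The summed FPKM of the 6 chains was 262 ± 32.5 (SD, n = 5) in MG and 147 ± 13.0 in HG. COL4A1 and COL4A2 together made up 90.3% ± 0.441 of that sum in MG (range 89.7% to 90.8%) and 87.8% ± 0.663 in HG (87.3% to 88.9%), without overlap. COL4A5 and COL4A6 made up 2.92% ± 0.215 in MG (2.63% to 3.23%) and 4.69% ± 0.334 in HG (4.32% to 5.09%), also without overlap. The share of COL4A3 and COL4A4 was 6.75% ± 0.283 in MG and 7.49% ± 0.466 in HG, and here the groups overlapped. These shares restate the contrast the members were chosen on and were not tested.

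Within the pairs, the FPKM ratio of COL4A2 to COL4A1 was 1.54 ± 0.172 (SD, n = 5) in MG and 1.77 ± 0.221 in HG, with ranges of 1.36 to 1.82 and 1.60 to 2.16 that overlapped. The ratio of COL4A4 to COL4A3 was 1.57 ± 0.0872 in MG (1.46 to 1.67) and 1.36 ± 0.0441 in HG (1.31 to 1.42), without overlap. COL4A5 exceeded COL4A6 by a ratio of 30.8 ± 2.72 in MG and 21.7 ± 4.72 in HG, where HG_1 had 14.2. Within the specialised network, COL4A5 over COL4A3 was 1.08 ± 0.0405 in MG (1.03 to 1.14) and 1.41 ± 0.118 in HG (1.23 to 1.55). The ratio of NID1 to NID2 was 1.41 ± 0.0876 in MG and 1.09 ± 0.167 in HG, with overlapping ranges.

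Whether the genes of a pair moved together was also described inside the groups, a measure the choice of members did not use, as the Pearson r of log2 CPM deviations from each group's mean. The points are the 10 libraries, which share preparation and GC trend with every other gene, so r is given with no p. COL4A1 and COL4A2 had r = 0.847, and r = 0.963 over the 8 libraries without MG_2 and HG_1. Ranked by r with COL4A1 over all rows tested, COL4A2 was at place 1188 with all libraries and 15 without those 2. Ranked by r with COL4A2, COL4A1 was at place 32 and 8. COL4A3 and COL4A4 had r = 0.943 with 10 libraries and 0.852 with 8, and COL4A3 was at place 79 and 246 for COL4A4. COL4A5 and COL4A6 had r = -0.308 and -0.0396, where COL4A6 rested on counts of at most 107.

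High r was not limited to genome neighbours. COL4A1 had r = 0.966 with COL4A4 and 0.959 with COL4A3, on another chromosome, or 0.900 and 0.894 over 8 libraries. HSPG2 and COL4A4 had r = 0.161 over 10 libraries and 0.890 over 8. COL4A5 and NID1 went the other way, with 0.865 and 0.0609. COL18A1 and NID1 had r = -0.736 and -0.721. In MG_2 and HG_1 alike, 7 of the 10 members lay below their group mean and 2 above it, COL18A1 and HSPG2. COL18A1 (transcript GC 67.2%) deviated by 0.17 and 0.50 on the log2 scale, HSPG2 (64.5%) by 0.01 and 0.11, and COL4A2, next in GC content (62.0%), by -0.11 and -0.03.

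**Figure D4:**
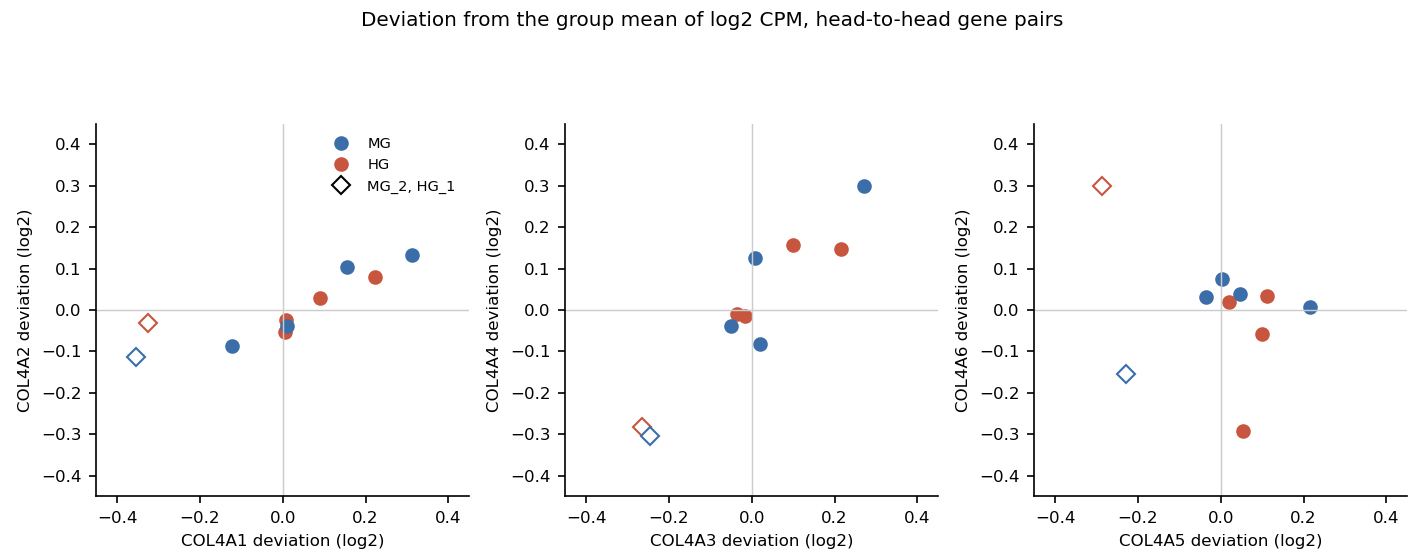
Deviation of log2 CPM from the group mean for the genes of each head-to-head pair, with 1 point per library (MG blue, HG red, open diamonds MG_2 and HG_1). Points of COL4A1 with COL4A2 (r = 0.847) and of COL4A3 with COL4A4 (r = 0.943) lie along a rising line, and those of COL4A5 with COL4A6 (r = -0.308) do not.

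Among genes with a mean of at least 10 CPM, those with the highest r with COL4A1 over 10 libraries were TCF7L2 (0.982), FSTL1 (0.982), ARPC5 (0.981), DCUN1D1 (0.979) and LIMA1 (0.979). Over the 8 libraries without MG_2 and HG_1 their r was 0.948, 0.986, 0.947, 0.944 and 0.936, so that FSTL1 alone of these 5 lay above COL4A2 with its 0.963. TCF7L2 is a transcription factor of Wnt signalling, FSTL1 a secreted glycoprotein, and ARPC5 and LIMA1 act on the actin cytoskeleton. Genes with a high r with COL4A2 included TNFAIP1 (0.939), NREP (0.921), SALL2 (0.908) and ARHGAP31 (0.902), or 0.956, 0.902, 0.937 and 0.917 over 8 libraries. These values come from the same 10 libraries.

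Related genes were read in 6 lists of 97 genes, of which 87 were tested, 32 called lower, 10 higher and 45 not called. Over all rows tested, 7.8% were called lower and 7.62% higher. The lists were written with earlier results of these data known, so their counts are a description and serve as support for nothing. Of 9 laminin chains tested, 5 were called lower and 1 higher, with a median log2 fold change of -0.24. LAMA5, an alpha chain of epithelial laminins, fell from 23.0 ± 1.65 CPM to 14.8 ± 1.04 (SD, n = 5), a log2 fold change of -0.64 ± 0.0724 (SE, edgeR adjusted p = 0.000304). Of 9 other basement membrane proteins tested, 5 were called lower and 0 higher, with a median of -0.52. SPARC, a matricellular protein that binds type IV collagen, fell from 2392 ± 128 to 1552 ± 81.7 CPM (log2 fold change -0.62, edgeR adjusted p = 6.97e-05). FBLN2, a fibulin, and FRAS1, which anchors epithelia, had log2 fold changes of -0.75 and -0.61 (edgeR adjusted p = 0.000443 and 0.0123).

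For the machinery that folds, exports and cross-links collagen the calls went both ways. Of 22 genes tested, 6 were called lower and 4 higher, with a median log2 fold change of -0.05. P3H2, which hydroxylates proline in type IV collagen, fell from 42.5 ± 2.62 to 26.2 ± 2.46 CPM (SD, n = 5; log2 fold change -0.70, edgeR adjusted p = 0.00019). Named after their values were seen, the type IV collagen cross-linkers LOXL2 and PXDN fell by 0.53 and 0.35 on the log2 scale (edgeR adjusted p = 0.000131 and 0.0236). LOXL2 oxidises lysines and PXDN forms sulfilimine bonds. The 4 genes called higher, also named after their values were seen, were CERT1, a ceramide carrier listed for its other name as a COL4A3-binding protein (log2 fold change 0.50, edgeR adjusted p = 0.0134), CRTAP, a partner of prolyl hydroxylase (0.29, edgeR adjusted p = 0.00183), PLOD3, a lysyl hydroxylase (0.28, edgeR adjusted p = 0.0322), and MIA2, which acts in export from the endoplasmic reticulum (0.22, edgeR adjusted p = 0.0436). CERT1 neither folds nor cross-links collagen, and 3 genes were called higher without it.

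Of 16 receptors of basement membranes, 4 were called lower and 3 higher, with a median log2 fold change of -0.22. ITGB4, the integrin subunit of hemidesmosomes, fell from 22.0 ± 1.00 to 9.98 ± 1.83 CPM (SD, n = 5; log2 fold change -1.14 ± 0.116 SE, edgeR adjusted p = 0.000171). BCAM, a receptor for LAMA5, fell from 29.5 ± 2.63 to 19.6 ± 3.10 CPM (log2 fold change -0.59, edgeR adjusted p = 0.00377). ITGB1, the shared partner of most collagen- and laminin-binding integrins, was not called, with a log2 fold change of -0.02.

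Of 17 matrix proteases and inhibitors tested, 6 were called lower and 2 higher, with a median log2 fold change of -0.22. TIMP3, a metalloprotease inhibitor that binds to Bruch's membrane, fell from 609 ± 75.3 to 256 ± 15.8 CPM (SD, n = 5; log2 fold change -1.25 ± 0.0810 SE, edgeR adjusted p = 1.95e-05). MMP3, a protease that degrades type IV collagen, rose from 1.32 ± 0.282 to 4.52 ± 0.688 CPM (log2 fold change 1.77 ± 0.184, edgeR adjusted p = 0.000182). MMP2, named after its values were seen, was more abundant and fell from 163 ± 9.49 to 127 ± 7.19 CPM (log2 fold change -0.36, edgeR adjusted p = 0.0015). MMP9 had 0 counts in every library. BMP1, which trims procollagens, and PLAU, the urokinase protease, fell by 0.81 and 0.75 on the log2 scale (edgeR adjusted p = 0.000123 and 0.000234).

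Of 14 genes of TGF-beta signalling, which drives matrix genes in many cells, 6 were called lower and 0 higher, with a median log2 fold change of -0.14. CCN2, a matricellular protein and common readout of the pathway, fell from 386 ± 69.5 to 157 ± 10.2 CPM (SD, n = 5; log2 fold change -1.29 ± 0.107 SE, edgeR adjusted p = 6.97e-05). Of the ligands, named after their values were seen, TGFB2 fell from 472 ± 63.2 to 337 ± 50.8 CPM (log2 fold change -0.49, edgeR adjusted p = 0.0194) and TGFB3 from 3.71 ± 0.815 to 2.49 ± 0.390 CPM (-0.57, edgeR adjusted p = 0.0489). The 8 genes not called included TGFB1, with a log2 fold change of -0.16, and SMAD7, also named after its values were seen, with -0.10. Whether activity of the pathway differed was not tested.

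**Figure D5:**
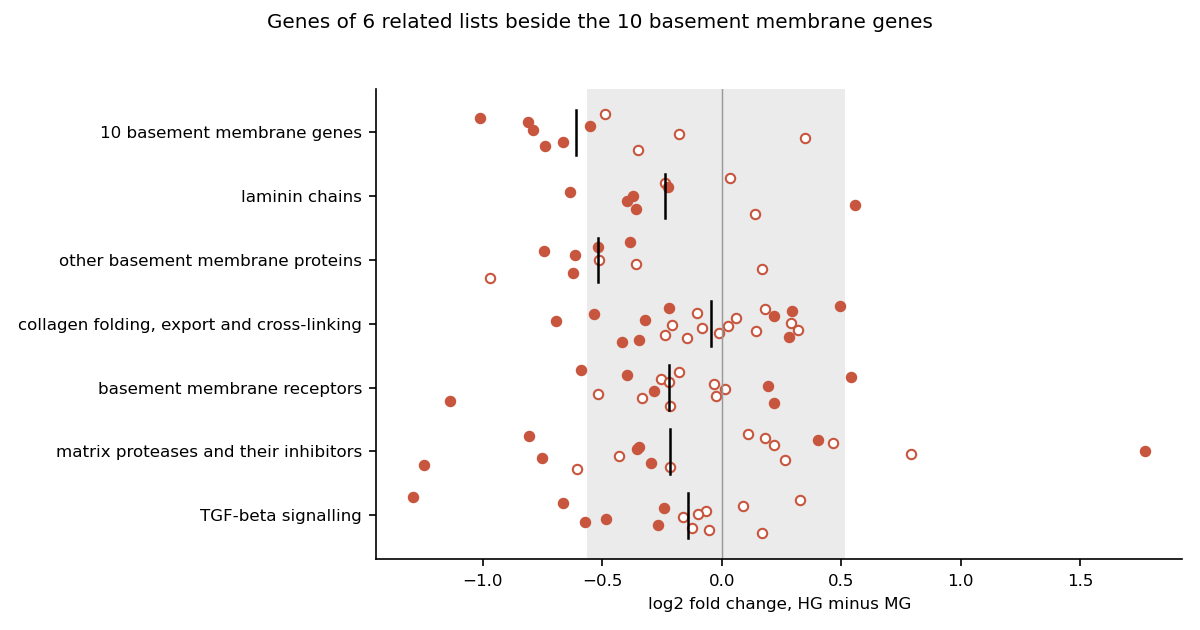
Log2 fold change of HG against MG (horizontal axis) for the 10 basement membrane genes and the tested genes of 6 related lists, with 1 point per gene. Filled points were called at an adjusted p under 0.05, black bars are list medians and the grey band spans the 5th to the 95th percentile of all rows tested. The median was -0.61 for the 10 genes and between -0.52 and -0.05 for the lists.

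Markers of cell types were read beside these genes. Of 12 RPE markers 9 were tested, KRT8, KRT18 and PMEL were called lower and 6 were not called. Their summed level was 2833 to 3591 CPM in MG and 1796 to 2470 in HG, and most of it came from the keratins KRT8 (1864 CPM in MG and 1211 in HG) and KRT18 (1059.6 and 659). The sum also holds BEST1, which had 8707 counts in MG_1 and 18223 in MG_4, against at most 300 in HG. The RPE transcription factors OTX2 (96.2 and 88.8 CPM) and MITF (57.8 and 50.2) were not called, nor were RLBP1, TYRP1, SERPINF1 and BEST1. The summed level of 8 fibroblast and pericyte markers was 214 to 264 CPM in MG and 111 to 138 in HG, with 4 tested, PDGFRB, COL1A1 and RGS5 called lower and CSPG4 not called. LUM was at 0 in every library, and COL1A2, DCN and PDGFRA had at most 4, 3 and 17 counts. The 6 endothelial markers summed to 3.22 to 5.42 CPM in MG and 2.44 to 3.22 in HG, with 2 tested, KDR called lower and VWF not called. The part of these markers in the values of the type IV collagen group was not tested.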

How the data were processed

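RNA of ARPE-19 cells was prepared with Trizol and the VAHTS Universal V6 kit. The authors deposited gene-level read counts (unnormalized whole numbers) and a table of FPKM, which the authors had scaled by transcript length and library size. The submitters' processing notes list fastp 0.20.1, HISAT2 2.2.1 and GRCh38, and the counting program, its use of strand and the tool of the comparison are not given in the sources used here.

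HG was compared with MG on the counts in R 4.3.3 with edgeR 4.0.16 (filterByExpr, TMM, quasi-likelihood test) and Benjamini-Hochberg adjustment over 14936 rows. Log2 CPM used a prior count of 2. MG columns were matched to the samples' titles. The HG columns carry numbers and the HG titles letters, so these columns were matched to the group only. The members, the 6 related lists and the marker lists were chosen with earlier results of these data known. Named were all 10 members, from each list the called genes with a fold change above 1.5 (at most 4 by size), and the 5 genes most like COL4A1 and COL4A2. Some genes that meet this rule are not reported here. Other genes were chosen after their values were seen. The steps were tested on simulated counts. Alternatives were RLE size factors, scaling by library size, DESeq2 1.42.0, other count filters, limma 3.58.1 on log2(FPKM + 1) and log2(FPKM + 0.1), fold change limits, leaving out libraries and, added after seeing the data, a GC and length correction (lowess, span 0.3). Promoter windows came from RefSeq on GRCh38.p14.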

Additional observations from a re-analysis of the deposited data

Results flagged for a closer look

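In 4 of 32 groups of 5 values 1 library lay far from the others, by a gap above Dixon's 95% limit of 0.71 of the range, where chance gives about 1.6 such groups. NID1 was at 32.0 CPM in MG_2, against 41.4 to 43.6 in the other MG libraries. COL4A5 was at 37.0 CPM in HG_1, against 45.8 to 48.9 in the other HG libraries. The FPKM ratio of COL4A2 to COL4A1 was 2.16 in HG_1, against 1.60 to 1.72 elsewhere in HG. The FPKM ratio of COL4A5 to COL4A6 was 35.5 in MG_1, against 28.8 to 30.7 elsewhere in MG, with COL4A6 at 59 counts in that library. MG_2 and HG_1, which hold 3 of these 4 values, are the libraries with the rising GC trend, and the part of that trend in the values was not tested.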

How the results depend on the processing

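The 6 members called lower were called in all 120 values recomputed for them, and the number of members called was between 6 and 8 over 20 alternatives by adjusted p, and 5 under either fold change limit, which COL4A3 did not reach. Of 199 recomputed member values, 0 turned direction or lost a call. NID2 gained one in 4 (DESeq2, without MG_2, without MG_2 and HG_1, GC and length correction), and COL18A1 in 5 (DESeq2, without MG_5, without HG_1, without MG_2 and HG_1, the correction). The cause was not tested. COL4A6 gave no value at a mean FPKM of at least 1, and its log2 fold change was between 0.08 and 0.42 elsewhere. Over all rows, 2303 genes were called, 772 with a fold change above 1.5 and an unadjusted p under 0.05, 551 with that fold and the adjusted p, 4035 without MG_2 and HG_1, and 3965 with the correction. Of the 6 related lists, 42 genes were called, and 14 and 13 under the same 2 rules. With each library left out in turn, between 1648 and 2993 rows were called. The r of COL4A1 and COL4A2 was 0.963 in place of 0.847 without MG_2 and HG_1. No paired analysis was possible because the labels number the MG samples and letter the HG samples. COL4A6 had only 59 to 107 counts per library, and the part of depth in its values was not tested.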

Other observations

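Some genes of the related lists were higher in HG, and they are named here after their values were seen. LAMB3, a chain of the laminin that ITGB4 binds, rose from 42.0 ± 5.05 CPM (SD, n = 5) in MG to 61.9 ± 7.07 in HG, a log2 fold change of 0.56 ± 0.0990 (SE, edgeR adjusted p = 0.00359). DDR2, a collagen receptor kinase, rose from 146 ± 16.6 to 212 ± 26.2 CPM, with a log2 fold change of 0.54 ± 0.103 (edgeR adjusted p = 0.00534). CTSL, a lysosomal protease, rose by 0.40 on the log2 scale (edgeR adjusted p = 0.00595).

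BEST1, a chloride channel of the RPE, varied far more within the groups than the members. It had 8707 counts in MG_1 and 18223 in MG_4, between 24 and 234 in the other MG libraries and between 44 and 300 in HG. BEST1 was not called, and for the CPM of the 10 members neither MG_1 nor MG_4 lay apart by Dixon's limit.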
